A study of Mus musculus with 2 samples.

Results

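The R-spondins *Rspo1*, *Rspo2* and *Rspo3* were examined as a gene family, 3 of the 31053 genes counted, across the cells sorted from the intestinal lamina propria of mice carrying a mutant *Apc* allele. The genes were taken by name and not by a measured value. Both groups were C57BL/6 mice aged 11 weeks by the labels (the results text of the study gives a lower age) and carried the ApcMin/+ allele. The ApcMin mice were Lef1 +/+, and the VApcMinL mice were Lef1 fl/fl with Villin-Cre, a recombinase driven in the intestinal epithelium and not in the stroma, so that the deletion was constitutive and epithelial. Cells that lacked DAPI, Ter119, EpCAM and CD45 staining were sorted, and 1 droplet library was made for each genotype. How many mice went into a library is not given in the sources used here. Since a genotype is represented by a single library, differences between the genotypes were not tested and no p-value is given. Every interval below is an exact 95% interval that covers counting error only, and a difference between the libraries cannot be told apart from a difference between mice, dissections or sorts.

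R-spondins are secreted proteins that raise the response of a cell to Wnt ligands. They bind the receptors Lgr4, Lgr5 and Lgr6 together with the membrane ubiquitin ligases Rnf43 and Znrf3, which otherwise remove Frizzled receptors from the cell surface. In the intestine the stroma around the crypts is the known source of R-spondins, and the crypt stem cells that carry Lgr5 depend on them.

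The members lie on separate chromosomes in the mouse build GRCm38. *Rspo1* (ENSMUSG00000028871) is on the plus strand at chr4:124986430-125009099, *Rspo2* (ENSMUSG00000051920) on the minus strand at chr15:43020794-43170826, and *Rspo3* (ENSMUSG00000019880) on the minus strand at chr10:29452416-29535867. Each has 5 coding exons in GENCODE vM21, and the longest reading frames span 265, 243 and 277 codons. *Rspo2* overlaps no other annotated gene, whereas *Rspo1* overlaps *Gm12930* on the other strand and *Rspo3* overlaps *Gm20276* and *Gm48159*, so reads in those overlaps may be assigned with less certainty. The family shares a cysteine-rich region, shown here for the likeness of the members. Since molecules were counted from their 3′ end, reads need not come from this region. Of all in-frame windows of 60 coding bases, this one had the most bases identical in all 3 members, 36 of 60 (positions counted from the start codon, bases 301 to 360 of *Rspo1*, 298 to 357 of *Rspo2* and 301 to 360 of *Rspo3*). Capitals mark the identical bases.
Rspo1: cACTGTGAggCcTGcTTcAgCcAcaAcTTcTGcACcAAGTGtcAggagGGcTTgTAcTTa
Rspo2: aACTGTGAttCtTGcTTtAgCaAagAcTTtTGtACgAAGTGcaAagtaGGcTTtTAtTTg
Rspo3: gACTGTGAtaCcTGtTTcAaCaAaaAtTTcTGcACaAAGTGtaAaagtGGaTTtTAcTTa
Pair by pair, 41 of the 60 bases were the same in *Rspo1* and *Rspo2*, 44 in *Rspo1* and *Rspo3*, and 42 in *Rspo2* and *Rspo3*. Over whole transcripts the longest run of identical bases was 13 between *Rspo1* and *Rspo2*, 12 between *Rspo1* and *Rspo3*, and 14 between *Rspo2* and *Rspo3*.

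A barcode was kept as a cell when it held at least 3000 UMIs (unique molecular identifiers, 1 for each captured RNA molecule), at most 20% of them from mitochondrial genes. This left 6599 ApcMin cells with a median of 10849 UMIs and 6569 VApcMinL cells with a median of 9111. The mitochondrial limit removed 75 and 531 barcodes. *Lef1*, the deleted gene, had 122 and 115 UMIs over all cells, and in the few epithelial-like cells that passed the sort it stood at 7.57 and 1.94 CPM (counts per 1000000 UMIs of the same cells). Whether these 3′ tags lie in the deleted part of *Lef1* was not tested. The sort was not pure, since 1365 ApcMin and 366 VApcMinL cells were led by hemoglobin genes and 48 and 345 were epithelial-like. The libraries shared 18 cell barcodes, where 6.38 would be shared by independent draws.

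Cells were clustered without the R-spondins and without the other Wnt pathway and niche genes listed for the comparisons, so that a member could not define the cells it was measured in. Of 25 classes, 13 clusters were fibroblast-like, with *Pdgfra* and *Col1a1* detected together in at least 50% of their cells, and held 3403 ApcMin and 3722 VApcMinL cells. Of these, 9 are called by their leading genes, among them the smaller *Scg2*, *Wif1* and *Bmp5* clusters. The *Penk* cluster (885 and 705 cells), the *Pi16* cluster (327 and 178) and the *Grem1* cluster (507 and 677) each carried all markers of its list. *Adamdec1* led 2 clusters, one with *Ereg* (356 and 763) and one with *Mmp10* (126 and 351). The *Has1* cluster (823 and 602) matched none of the fixed lists. Its top genes *Cfd* and *Car3* belong to the adipocyte list, whose 5 genes summed to 6.42 CPM there in ApcMin and 1135 in VApcMinL, against 5.26 and 151.8 CPM in empty droplets. The other 4 fibroblast-like clusters were mixed, led by hemoglobin, immunoglobulin, B cell or myeloid genes beside those of fibroblasts. Outside them lay 3226 and 3629 fibroblast-like cells. Levels are given first by cell class and then between the libraries, always with ApcMin before VApcMinL. Because each molecule is counted from its 3′ end, gene length does not enter these levels, but levels of different members are still not set against each other, since capture can differ between transcripts.

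*Rspo3* was detected in the most cell classes. Its UMIs numbered 6354 and 4939 over all cells, 96.5% (96.1 to 97.0) and 89.0% (88.1 to 89.8) of them in fibroblast-like cells. The highest level lay outside the fibroblasts, in lymphatic endothelial-like cells. It was 288 CPM (236 to 348) from 107 UMIs in 38 cells and 316 CPM (287 to 347) from 435 UMIs in 175 cells. This interval overlapped that of the next class, the *Grem1* cluster, in ApcMin (244 CPM, 233 to 256). In VApcMinL they were apart (193 CPM, 184 to 203). All 7 lymphatic markers, among them *Lyve1*, *Prox1*, *Ccl21a* and *Mmrn1*, were found in over 25% of the lymphatic endothelial-like cells in both libraries. Transcripts of *Rspo3* were seen in 68.4% and 66.9% of them. Fibroblast markers summed to 5680 and 3271 CPM in this class, so the cells without any *Col3a1*, an abundant fibroblast collagen, were taken alone. These 26 and 132 cells held *Rspo3* at 327 and 307 CPM, in 65.4% and 65.9% of cells.

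Blood endothelial-like cells had less *Rspo3* than the lymphatic ones, most of it in cells that also held *Col3a1*. The level was 31.7 CPM (21.8 to 44.5) in ApcMin and 4.81 CPM (2.75 to 7.81) in VApcMinL, from 33 UMIs in 10 of 124 cells and 16 UMIs in 14 of 487 cells. Cells with *Rspo3* carried *Col3a1* at 4605 and 1762 CPM, and cells without it at 558 and 159. Cells with *Rspo3* were also deeper, with medians of 16313.5 and 11547.5 UMIs against 5835.5 and 4977. Leaving out cells with *Col3a1* may therefore also leave out deep cells, and the source of the *Rspo3* was not tested. Among blood endothelial-like cells with no *Col3a1*, 1 UMI was left in 92 cells and 3 UMIs in 361 cells. Beside this, blood endothelial-like cells had an *Rspo3* UMI in 8.06% and 2.87% of cells, at median depths of 6057 and 5081 UMIs. B cells, which should not express the gene, had one in 0.756% and 0.563%, at 4870 and 4619. T cell or ILC-like cells had one in 2.59% and 7.06%, at 6465 and 6581, and myeloid-like cells in 5.21% and 6.82%, at 10890 and 8798.5. In VApcMinL the blood endothelial-like share thus lay below those of the T cell or ILC-like and myeloid-like cells. *Rspo3* in the endothelium was thus measured mostly in its lymphatic branch. Endothelial-like cells of both kinds held 2.20% and 9.13% of all *Rspo3* UMIs, and they were 2.45% and 10.1% of the cells.

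Within the fibroblasts *Rspo3* differed from cluster to cluster. The *Grem1* cluster led with 244 CPM (233 to 256) and 193 CPM (184 to 203), and *Rspo3* was found in 84.0% and 75.2% of its cells. *Grem1* encodes a secreted BMP antagonist made by stroma close to the crypts. The *Ereg* *Adamdec1* cluster followed at 167 and 121 CPM and the *Penk* cluster at 140 and 119 CPM. Their intervals were apart in ApcMin and overlapped in VApcMinL. The *Has1* cluster had 107 and 77.8 CPM and the *Pi16* cluster 82.1 and 76.9 CPM, again apart in ApcMin and overlapping in VApcMinL. These 5 clusters were the main fibroblast-like sources of *Rspo3* in both libraries. The *Mmp10* *Adamdec1* cluster had 35.0 and 33.6 CPM, so the 2 *Adamdec1* clusters lay far apart, with intervals that did not overlap in either library. The *Scg2* cluster stood at 19.8 and 24.97 CPM, and the *Wif1* cluster at 3.14 CPM from 1 UMI and 15.8 CPM from 29 UMIs. In the *Bmp5* cluster, with 10 and 68 cells, 13 UMIs in 2 ApcMin cells gave 103 CPM and 6 UMIs in VApcMinL gave 9.45 CPM, so no level could be set for it. Empty droplets held *Rspo3* at 14.7 and 16.5 CPM, and free RNA was put at 0.968% and 1.69% of the UMIs of the *Wif1* cluster.

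*Rspo2* lay mostly in 2 clusters. It had 457 and 449 UMIs over all cells, of which the *Grem1* cluster held 61.3% (56.6 to 65.8) and 54.3% (49.6 to 59.0) and the *Ereg* *Adamdec1* cluster 26.3% and 30.3%. The level was 38.6 CPM (34.2 to 43.3) and 29.6 CPM (26.0 to 33.6) in the *Grem1* cluster. In the *Ereg* *Adamdec1* cluster it was 26.8 CPM (22.2 to 32.0) and 18.9 CPM (15.9 to 22.4), with intervals apart from those of the *Grem1* cluster in both libraries. The *Scg2* cluster came next among the unmixed clusters with 3.52 and 7.97 CPM from 8 and 15 UMIs. Small counts were also found in the mixed clusters, up to 25.7 CPM from 11 UMIs in the VApcMinL cluster with B cell genes.

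The large *Penk* cluster had 2 and 4 *Rspo2* UMIs and the *Has1* cluster 6 and 9. None was found in the blood endothelial-like, mesothelial-like, B cell-like, plasma-like or erythroid-like cells of either library. For 124 and 487 blood endothelial-like cells this allows, at 3 counts, up to 2.88 and 0.901 CPM, or a share of cells with a UMI of up to 2.42% and 0.616%. The lymphatic endothelial-like cells, where *Rspo3* was highest, had 0 and 2 *Rspo2* UMIs. In empty droplets *Rspo2* stood at 2.21 and 3.30 CPM.

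*Rspo1* was highest in a small mesothelial-like group and was found in most fibroblast-like clusters. The mesothelium is the cell layer that covers the outer gut wall. All 7 ApcMin and all 34 VApcMinL mesothelial-like cells held *Rspo1*, with 172 and 457 UMIs, or 702 CPM (601 to 815) and 811 CPM (738 to 888). Per cell the level ran from 1.39 to 9.14 UMIs per 10000 in ApcMin (median 7.74) and from 2.30 to 16.5 in VApcMinL (median 7.80). All 5 mesothelial markers, *Msln*, *Upk3b*, *Lrrn4*, *Krt19* and *Wt1*, were found in over 25% of these cells. *Rspo1*, though not used for clustering, was among the 10 genes that led the group. Fibroblast markers were also high there, with 9 and 8 of the 10 listed in over 25% of cells and sums of 21930.9 and 16527.5 CPM. The mesothelial markers summed to 5901 and 5480 CPM. These cells were 0.106% and 0.518% of the libraries but held 12.8% and 31.0% of all *Rspo1* UMIs, which numbered 1346 and 1472.

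Among the fibroblasts the *Has1* cluster stood first for *Rspo1*, with 45.9 CPM (42.1 to 49.9) and 56.9 CPM (51.9 to 62.3), and its interval was apart from the next cluster's in both libraries. It held 40.3% and 31.7% of the *Rspo1* UMIs. The mesothelial list summed to 72.8 and 64.7 CPM there, against 5901 and 5480 CPM in the mesothelial-like cells. The *Grem1* cluster (25.3 and 23.1 CPM) and the *Pi16* cluster (20.9 and 27.2 CPM) followed with overlapping intervals. The *Ereg* *Adamdec1* cluster (19.6 and 11.4 CPM) stood above the *Penk* (12.7 and 14.1 CPM) and *Scg2* clusters (10.6 and 13.8 CPM) in ApcMin and below both in VApcMinL. Its interval was apart from theirs in ApcMin and overlapped both in VApcMinL. The *Mmp10* *Adamdec1* cluster had 6.05 and 0.853 CPM from 9 and 3 UMIs. Empty droplets held *Rspo1* at 2.77 and 6.40 CPM.

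*Rspo1* in the epithelial-like cells came from a handful of barcodes. ApcMin had 1 UMI in 48 cells, and VApcMinL had 52 UMIs in 9 of 345 cells, with 17 and 16 UMIs in the top 2. The mesothelial gene *Msln* stood at 200 CPM over these 9 cells together, although most of them had none (median 0), and the other 336 cells had none. In the 342 VApcMinL epithelial-like cells without *Msln*, 8 *Rspo1* UMIs were left, or 0.542 CPM.

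**Figure D1:**
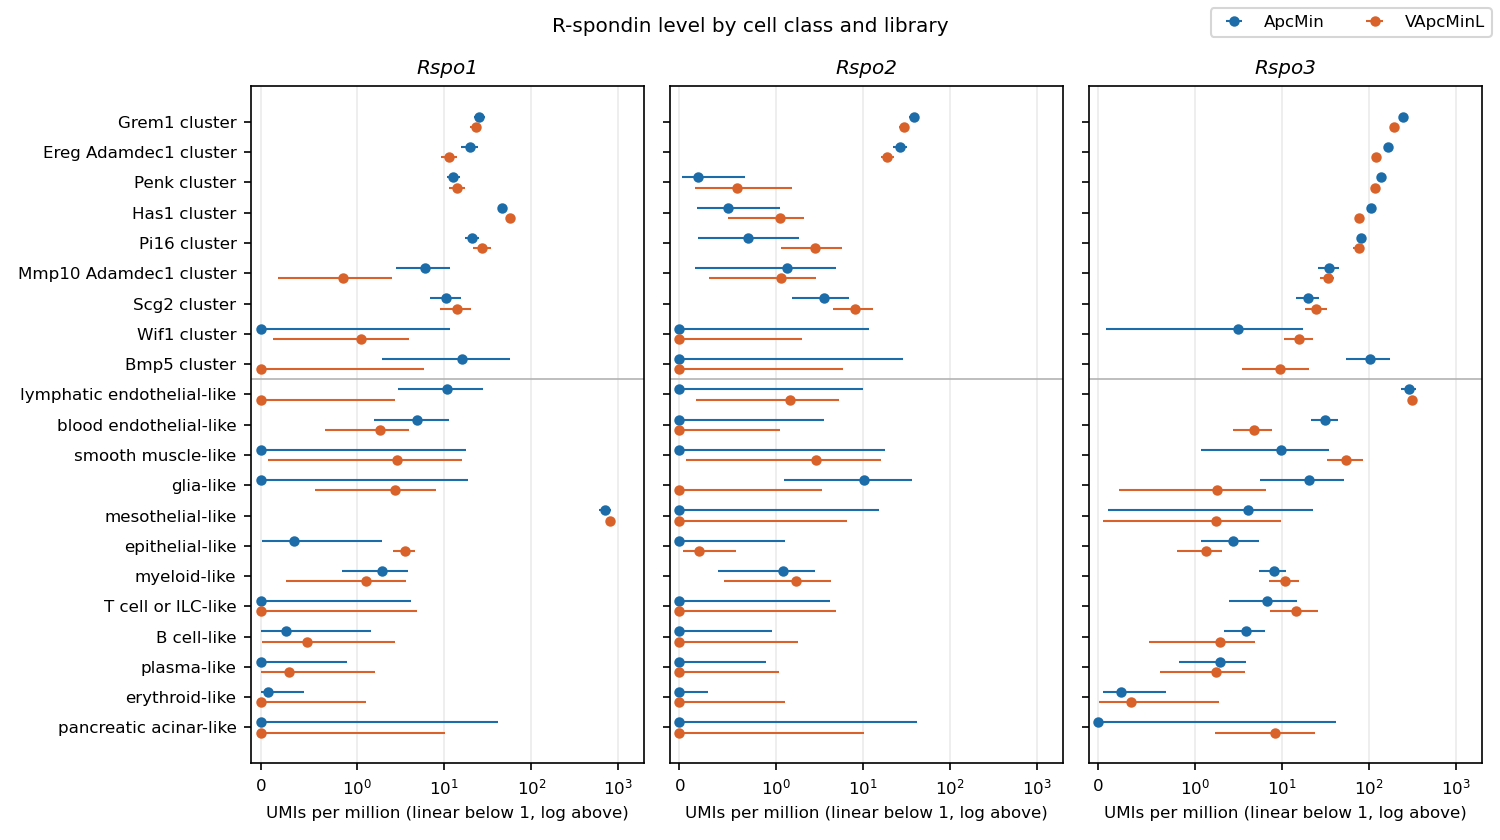
Level of *Rspo1*, *Rspo2* and *Rspo3* in CPM (horizontal axis, linear below 1 and logarithmic above) in 21 cell classes of the ApcMin (blue) and VApcMinL (orange) library, with exact Poisson 95% intervals, a grey line between fibroblast-like clusters and other cells, and the 4 mixed clusters left out. The top point is the mesothelial-like class for *Rspo1* (702 and 811), the *Grem1* cluster for *Rspo2* (38.6 and 29.6) and the lymphatic endothelial-like class for *Rspo3* (288 and 316).

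The plot of levels shows that no class was highest for more than 1 member, and that among the unmixed fibroblast-like clusters the *Grem1* cluster stood first for both *Rspo2* and *Rspo3*. In the *Grem1* cluster 9.47% and 17.1% of cells had no R-spondin UMI, 38.9% and 31.3% had 2 members and 7.50% and 4.73% had all 3. Over all fibroblast-like cells 33.5% and 43.9% had none.

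**Figure D2:**
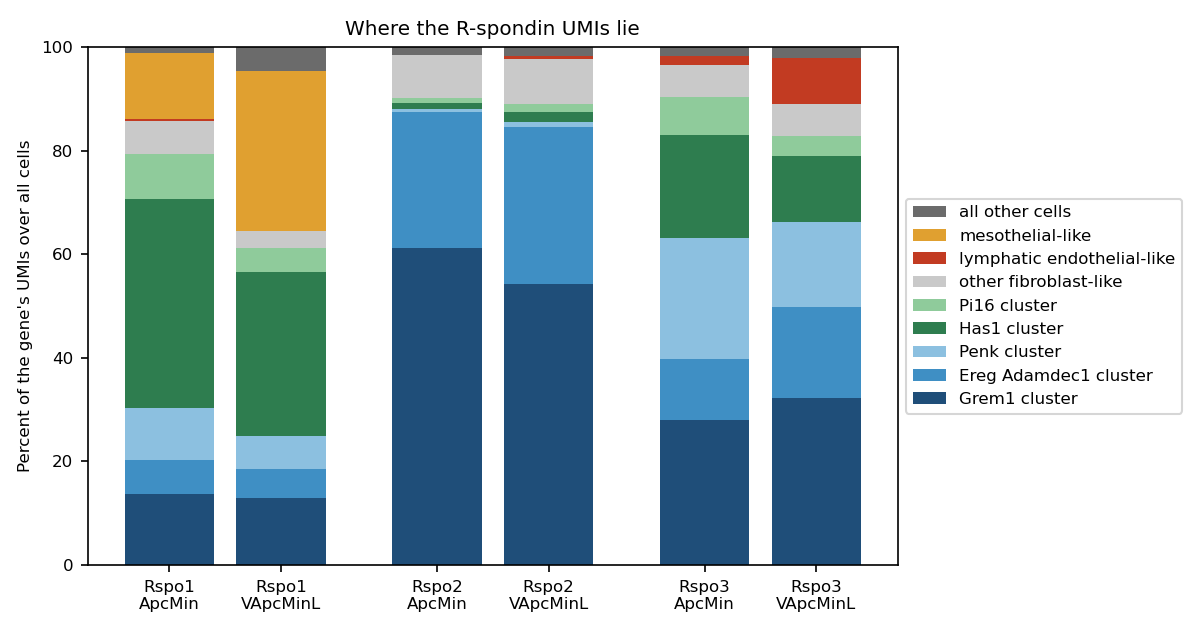
Share of each member's UMIs, in percent of its UMIs over all cells of a library, held by the main cell classes (bars stack to 100%). *Rspo2* UMIs lie mostly in the *Grem1* (61.3% and 54.3%) and *Ereg* *Adamdec1* clusters (26.3% and 30.3%), *Rspo1* has a mesothelial-like part of 12.8% and 31.0%, and *Rspo3* has a lymphatic part of 1.68% and 8.81%.

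The shares of UMIs depend on how many cells of each class were caught. Lymphatic endothelial-like cells were 0.576% of the ApcMin and 2.66% of the VApcMinL cells, and their share of *Rspo3* UMIs went from 1.68% (1.38 to 2.03) to 8.81% (8.03 to 9.63) while the intervals of its CPM overlapped.

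The same cells were also ordered along a single marker rather than by cluster. Since *Grem1* leads the *Grem1* cluster, this order is not independent of the clusters and describes the same pattern again. The fibroblast-like cells outside the mixed clusters were grouped by their *Grem1* UMIs per 10000. From cells without *Grem1* to those with under 5, with 5 to 20 and with 20 or more, *Rspo2* stood at 0.671, 9.85, 20.9 and 42.1 CPM in ApcMin. In VApcMinL it stood at 1.82, 8.99, 21.2 and 28.7 CPM. *Rspo3* ran along the same order from 103 to 117, 186 and 241 CPM and from 71.1 to 89.7, 147 and 192 CPM. *Rspo1* showed no such order, with 23.8, 30.2, 23.8 and 27.7 CPM in ApcMin and 20.4, 28.3, 22.7 and 27.4 CPM in VApcMinL. The depth of these groups was not matched.

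**Figure D3:**
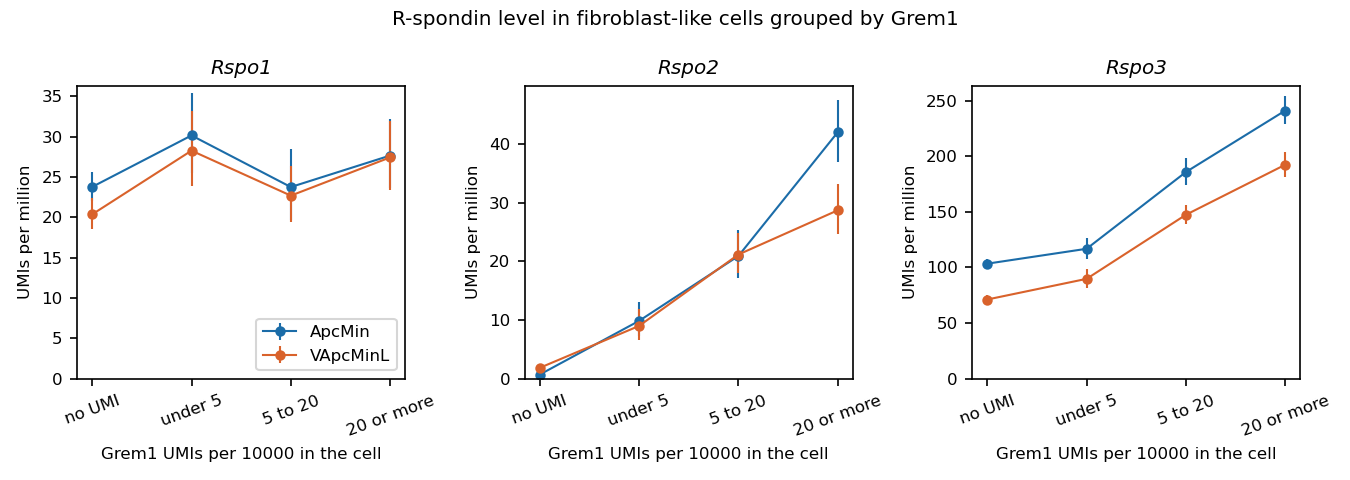
R-spondin level (CPM, exact Poisson 95% intervals) in fibroblast-like cells outside the mixed clusters, grouped by *Grem1* UMIs per 10000 UMIs of the cell. *Rspo2* and *Rspo3* are higher in each group with more *Grem1* in both libraries (to 42.1 and 28.7, and 241 and 192, in the last group), whereas *Rspo1* is not.

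Along *Penk*, which encodes an opioid peptide precursor, *Rspo2* was lower in the groups from 5 UMIs per 10000 up, though not in steady order. From cells with no *Penk* to those with 20 or more UMIs per 10000, *Rspo2* was 14.6, 16.0, 2.16 and 0 CPM in ApcMin. In VApcMinL it was 11.9, 14.7, 2.48 and 0.684 CPM. *Rspo3* was not monotone, with 114, 141, 130 and 150 CPM in ApcMin and 84.5, 117, 109 and 131 CPM in VApcMinL. Along *Pi16* both were lower in ApcMin cells with more of the marker, *Rspo2* from 12.7 to 0 CPM and *Rspo3* from 153 to 48.0 CPM. In VApcMinL the last *Pi16* group was 34 cells, with *Rspo3* at 88.4 CPM. Along *Adamdec1* the order was not monotone either. *Rspo2* was 4.16 and 5.11 CPM without *Adamdec1*, 23.4 and 20.5 CPM with under 5 UMIs per 10000, and 20.3 and 11.7 CPM with 20 or more.

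Cells were also gated one by one, asking for *Pdgfra* and *Col1a1*, no *Pecam1*, *Ptprc* or *Epcam*, and at least 5 UMIs per 10000 of a marker. *Grem1* positive cells (676 and 863, with 225 and 365 cells within 2-fold of the limit on either side) had *Rspo2* at 32.0 and 24.7 CPM and *Rspo3* at 214 and 169 CPM. *Adamdec1* positive cells (476 and 1036, with 101 and 162 near the limit) had *Rspo2* at 18.9 and 12.3 CPM and *Rspo3* at 138 and 100.4 CPM. *Rspo2* was thus higher in these gates than in the *Penk* and *Pi16* gates. *Penk* positive cells (1343 and 859, with 956 and 792 near the limit) had *Rspo2* at 1.68 and 2.39 CPM and *Rspo3* at 134 and 111 CPM. *Pi16* positive cells (401 and 155, with 311 and 162 near the limit) had *Rspo2* at 0.960 and 5.12 CPM, from 6 and 11 UMIs, and *Rspo3* at 71.7 and 67.1 CPM. *Rspo1* ranged over these gates from 17.5 CPM in *Adamdec1* to 28.0 CPM in *Penk* positive cells of ApcMin and from 9.64 CPM in *Adamdec1* to 35.9 CPM in *Pi16* positive cells of VApcMinL. The gates overlap, with 449 and 472 cells positive for 2 of the markers and 9 and 28 for 3.

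Whether members were found in the same single cells was read after each cell had been thinned to 3000 UMIs, since deep cells show every gene more often. Of thinned fibroblast-like cells outside the mixed clusters that held *Rspo2* in ApcMin, 52.1% (39.9 to 64.1) of 71 cells also had *Rspo3*, and 26.9% (25.4 to 28.5) of the 3155 others had it. In VApcMinL the shares were 33.0% (23.5 to 43.6) of 91 and 22.4% (21.0 to 23.8) of 3538, with overlapping intervals. Within the *Grem1* cluster alone the shares were 54.3% (39.0 to 69.1) against 47.3% (42.7 to 52.0) and 42.6% (28.3 to 57.8) against 36.8% (33.0 to 40.7), so inside 1 cluster no difference was detectable at this depth. Unthinned, *Rspo3* was found in 58.2% and 47.7% of all fibroblast-like cells, and thinned in 27.2% and 22.4%.

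Between the libraries *Rspo3* was lower in the fibroblasts of VApcMinL mice. Summed over all fibroblast-like cells it stood at 130 CPM (126 to 133) in ApcMin and 105 CPM (102 to 108) in VApcMinL, a ratio of 0.807 (0.776 to 0.839) or −0.31 on the log2 scale, and 0.795 without the mixed clusters. *Rspo1* stood at 24.4 and 22.6 CPM, a ratio of 0.925 (0.848 to 1.01). It was 0.825 (0.728 to 0.935) once the mixed clusters and the *Has1* cluster were left out. The *Has1* cluster held 40.3% and 31.7% of *Rspo1* UMIs at a ratio of 1.24 (1.09 to 1.41), so leaving it out lowers the value. With each cluster given the same weight in both libraries the *Rspo1* ratio was 1.05, without an interval. The share of all genes with an interval below 1 was not counted without these clusters. *Rspo2* stood at 9.51 (8.65 to 10.4) and 10.5 CPM (9.50 to 11.5), a ratio of 1.10 (0.961 to 1.26). The median log2 ratio over 14263 genes in these cells was 0.03, with the middle 50% from −0.16 to 0.25, so *Rspo3* lay below the lower quartile. No member reached 1.5-fold with an interval that left out 1, the criterion by which 4.21% of 14265 genes were lower and 11.2% higher in VApcMinL. With the interval alone as the criterion, which *Rspo3* met, 26.1% of genes were lower.

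Cluster by cluster, *Rspo3* was lower in 6 of the 7 unmixed fibroblast-like clusters with at least 50 UMIs, and the interval left out 1 in 4 of them. The ratio was 0.791 (0.738 to 0.847) in the *Grem1* cluster, 0.726 (0.658 to 0.801) in the *Ereg* *Adamdec1* cluster, 0.727 (0.660 to 0.7997) in the *Has1* cluster and 0.853 (0.782 to 0.931) in the *Penk* cluster. In the *Pi16* and *Mmp10* *Adamdec1* clusters it was 0.937 (0.788 to 1.11) and 0.960 (0.687 to 1.36), and in the *Scg2* cluster 1.26 (0.820 to 1.94). An interval below 1 was common in these tables. It was found for 22.9% of genes in the *Grem1* cluster, 20.0% in the *Ereg* *Adamdec1* cluster, 25.7% in the *Has1* cluster and 17.3% in the *Penk* cluster, and for 11.4% in the *Pi16*, 11.8% in the *Mmp10* *Adamdec1* and 11.8% in the *Scg2* cluster. In the lymphatic endothelial-like cells the ratio was 1.10 (0.886 to 1.37), and its direction turned with the processing, to 0.926 (0.735 to 1.18) without doublets, 0.980 (0.683 to 1.44) with thinned cells and 0.939 (0.722 to 1.24) in cells without *Col3a1*. The first of these intervals lay above the fibroblast-like ratio of 0.807 (0.776 to 0.839), while each of the later intervals held that ratio. Whether the classes differ thus depended on the processing, and the difference was not tested. The median log2 ratio over genes was −0.09 in the *Grem1* cluster and −0.07 in the *Has1* cluster, a small shift in the same direction to be read beside these ratios. Scaling the fibroblast-like cells to a median of 0 gave *Rspo3* a log2 ratio of −0.34. Median depth was 13922 and 12322 UMIs in the *Grem1* cluster, and with every cell thinned to 3000 UMIs its ratio was 0.719 (0.619 to 0.833). Thinned intervals also stayed below 1 in the *Ereg* *Adamdec1* and *Penk* clusters, at 0.684 (0.570 to 0.822) and 0.797 (0.673 to 0.942). In the *Has1* cluster the thinned interval held 1, at 0.809 (0.648 to 1.01), and in the *Pi16* cluster the ratio turned to 1.10 (0.734 to 1.62).

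*Rspo2* was lower in VApcMinL in the 2 clusters that held most of it, although its summed level over fibroblasts was not. The ratio was 0.769 (0.645 to 0.916) in the *Grem1* cluster and 0.707 (0.549 to 0.911) in the *Ereg* *Adamdec1* cluster, both with intervals below 1. With cells thinned to 3000 UMIs the intervals held 1, at 0.692 (0.460 to 1.04) and 0.683 (0.412 to 1.15), from 53 and 49 UMIs in the first and 28 and 41 in the second. Where *Rspo2* had few UMIs the ratio went both ways. Among the unmixed clusters it was 2.27 (0.902 to 6.17) in the *Scg2* cluster and 3.96 (1.01 to 18.5) in the *Pi16* cluster. In the *Penk* and *Has1* clusters it was 3.16 (0.453 to 34.9) and 2.17 (0.690 to 7.41), and in the *Mmp10* *Adamdec1* cluster 0.846 (0.121 to 9.35). Of the 15 VApcMinL UMIs in the *Scg2* cluster, 11 lay in 1 cell. All 4 ApcMin UMIs of the *Pi16* cluster lay in 1 cell. The *Grem1* and *Ereg* *Adamdec1* clusters were 14.9% and 10.5% of the ApcMin and 18.2% and 20.5% of the VApcMinL fibroblast-like cells. When each cluster was given the same weight in both libraries, the *Rspo2* level was 11.2 CPM in ApcMin and 9.48 CPM in VApcMinL, a ratio of 0.844, for which no interval was computed. The same weights left *Rspo3* at 0.793.

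The ratio of *Rspo1* was below 1 in some classes and above 1 in others. The gene was lower in VApcMinL in the *Ereg* *Adamdec1* cluster, where 88 and 82 UMIs gave a ratio of 0.581 (0.425 to 0.794). This value was past 1.5-fold, in a comparison where 5.72% of 10656 genes were lower by that criterion, and thinned it was 0.612 (0.3045 to 1.25). In the *Has1* cluster, where 15.0% of genes had an interval above 1, the ratio was 1.24 (1.09 to 1.41), and thinned it was 1.23 (0.933 to 1.63). In the *Pi16*, *Penk* and *Grem1* clusters the intervals held 1 (1.31, 1.11 and 0.911). With cells gated one by one, the ratio in *Pi16* positive cells was 1.59 (1.19 to 2.11), past 1.5-fold. It was 0.989 (0.847 to 1.15) in *Penk*, 0.907 (0.759 to 1.08) in *Grem1* and 0.552 (0.416 to 0.732) in *Adamdec1* positive cells. The share of all genes past 1.5-fold in these gates was not counted. In mesothelial-like cells the ratio was 1.15 (0.967 to 1.38), and without doublets 1.23 (1.03 to 1.48). In the epithelial-like cells described above it was 10.1 (1.74 to 408), past 1.5-fold in a table where 8.38% of genes were higher by that criterion, and without doublets 4.12 (0.660 to 170.9), from 1 and 20 UMIs. Over all cells *Rspo1* had a ratio of 1.13 (1.05 to 1.21), in a table where 52.0% of genes had an interval above 1 and the median log2 ratio was 0.17, and the mesothelial-like cells numbered 7 and 34.

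**Figure D4:**
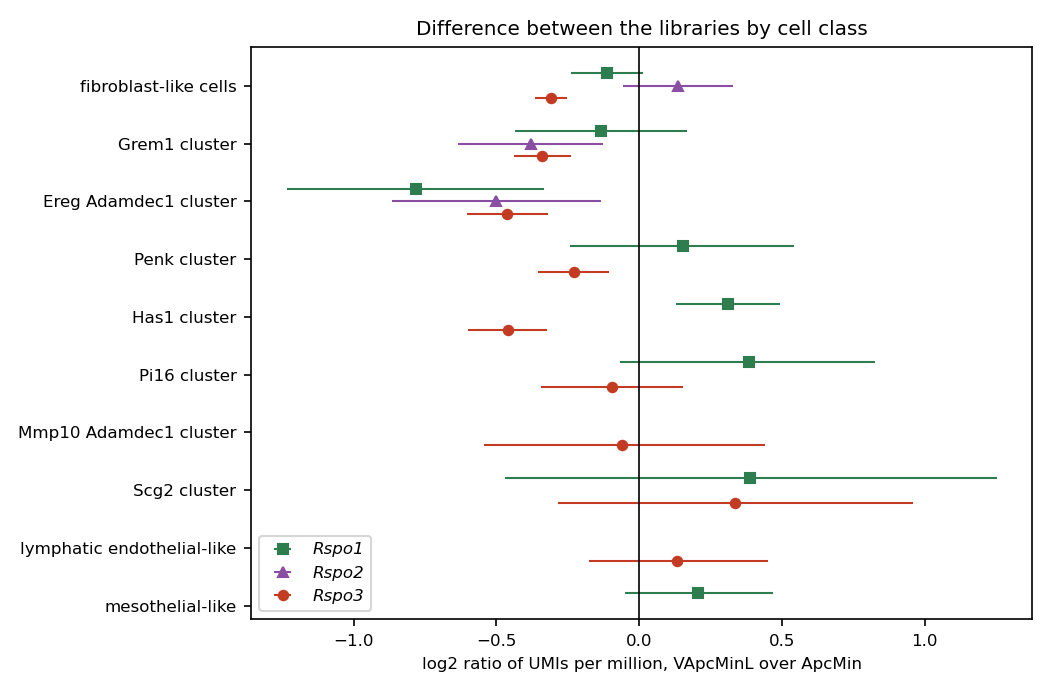
Log2 ratio of CPM, VApcMinL over ApcMin, for each member (squares *Rspo1*, triangles *Rspo2*, circles *Rspo3*) in the classes where it had at least 50 UMIs over both libraries, with exact conditional binomial 95% intervals from counting error. *Rspo3* lies below 0 with its interval in the fibroblast-like cells as a whole (−0.31) and in 4 clusters, and *Rspo1* lies on both sides of 0.

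The receptors of the R-spondins were measured in the same libraries. Of the list of 3, *Lgr4* was highest in glia-like cells (81.6 and 90.4 CPM) and epithelial-like cells (75.4 and 47.7 CPM), and stood at 8.09 and 9.78 CPM in fibroblast-like cells. *Lgr5*, the marker of crypt stem cells, had 56 and 25 UMIs in epithelial-like cells (19.3 and 1.68 CPM) and 22 and 44 UMIs over all fibroblast-like cells (0.465 and 1.05 CPM, the 1 of 2 receptors with enough UMIs that was higher past 1.5-fold, as were 11.2% of all genes). *Lgr6* had 1 and 2 UMIs in fibroblast-like cells. Of the ubiquitin ligases, *Rnf43* was at 34.8 and 18.7 CPM in epithelial-like cells and at 0.148 and 0.214 CPM in fibroblast-like cells, whereas *Znrf3* was found in both, at 14.5 and 4.42 CPM and at 7.21 and 9.57 CPM. *Rnf43* had too few UMIs in the fibroblast-like cells for a call, and *Znrf3* was not past 1.5-fold there. By cluster, *Znrf3* was higher past 1.5-fold in the *Penk*, *Ereg* *Adamdec1* and *Pi16* clusters (log2 ratios of 0.62, 0.71 and 1.18). It was not in the *Has1*, *Grem1*, *Mmp10* *Adamdec1* and *Scg2* clusters. The share of all genes higher by that criterion in these clusters is not given here. The fourth R-spondin gene, *Rspo4*, had 2 and 1 UMIs over all cells.

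Wnt ligands were also measured by cell class. *Wnt2* was highest in lymphatic endothelial-like cells (126 and 83.5 CPM), the class highest for *Rspo3*. *Wnt2b* was highest in the *Ereg* *Adamdec1* (48.8 and 38.1 CPM) and *Grem1* clusters (29.9 and 27.5 CPM), the pair that held most *Rspo2*. *Wnt4* lay in the *Mmp10* *Adamdec1* cluster (403 and 248 CPM), where *Rspo1* had 9 and 3 UMIs and *Rspo2* 2 and 4. *Wnt5a*, a ligand of non-canonical signaling, was highest in mesothelial-like cells (1065 and 653 CPM), the class highest for *Rspo1*. *Notum*, which encodes an enzyme that inactivates Wnt ligands, was at 72.2 and 147 CPM in the *Wif1* cluster, low in all 3 R-spondins, and had 0 and 1 UMIs in the *Grem1* cluster.

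In the fibroblast-like cells, 1 of 10 Wnt ligand and secretion genes with at least 50 UMIs was higher past 1.5-fold in VApcMinL (*Wnt4*, 18.7 and 38.3 CPM) and 1 lower (*Wnt2*, 1.73 and 0.857 CPM). The median log2 ratio of the 10 was 0.13. Of 6 Wnt target and feedback genes, *Notum* (2.45 and 8.24 CPM) and 1 other, *Sp5*, were higher. Of 10 Wnt receptors and co-receptors *Fzd6* alone was higher and none lower, and of 8 heparan sulfate proteoglycans, which hold Wnt ligands at the cell surface, *Sdc1* alone was higher and none lower (medians 0.12 and −0.17). These counts stand against the 11.2% of all tested genes that were higher. They were read from clusters whose shares differed, with the *Ereg* *Adamdec1* cluster at 356 and 763 cells. The *Mmp10* *Adamdec1* cluster had 126 and 351 cells and the *Wif1* cluster 28 and 134. Within the *Mmp10* *Adamdec1* cluster *Wnt4* was lower in VApcMinL, as given above, opposite to its summed level.

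Across cell classes other genes followed each member closely. Likeness was Pearson's r of log2(CPM + 1) over the 19 classes with at least 20 cells in both libraries, among 11779 genes, ranked by the lower of both libraries' values. The classes share libraries and depths, so r is given as a description. Most like *Rspo3* were *Zfpm2* (lower r 0.910), *Cyp1b1* (0.887), *Tnxb* (0.878), *Chrm3* (0.864) and *Ntn1* (0.863). Most like *Rspo2* were the BMP family gene *Gdf6* (0.807), *Isl2* (0.799), *Shisa3* (0.796), *Angptl1* (0.772) and *Gm36266* (0.763). Most like *Rspo1* were the chemokine receptor gene *Ackr4* (0.862), *Adgrd1* (0.859), *Adamtsl3* (0.826), *Osr1* (0.817) and *Scara5* (0.816). By the lower value the members were less like each other, with 0.471 for *Rspo1* and *Rspo2*, 0.552 for *Rspo1* and *Rspo3*, and 0.524 for *Rspo2* and *Rspo3*. For *Rspo1* and *Rspo3* the libraries differed, with r of 0.878 in ApcMin and 0.552 in VApcMinL. The ApcMin value was as high as that of *Rspo1* and *Ackr4* in ApcMin (0.878). Mesothelial-like cells, with 7 in ApcMin, are not among the 19 classes. Over all 25 classes the first gene for *Rspo1* was *C3* (0.829), for *Rspo2* *Shisa3* (0.831) and for *Rspo3* *Cyp1b1* (0.878).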

How the data were processed

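Single-cell RNA was measured in 2 droplet libraries, 1 per genotype. The authors counted UMIs with Cell Ranger (2.1.1 in the submitters' processing notes, while the file headers name 3.1.0) on mm10/GRCm38. The deposited values are raw counts of UMIs for 31053 genes and 6794880 barcodes, with no cell calling. Libraries held 93203061 and 101609269 UMIs, 83.6% and 74.4% of them in the cells kept. Following the study's methods, counts were scaled to 10000 per cell and log-transformed, and Seurat 5.3.0 (R 4.3.3; the study used 3.1.1) integrated 1559 features by canonical correlation and clustered at resolution 0.2 on 20 components. Fibroblast-like clusters were split at 0.4. Doublets were kept in the main values. UMIs were summed per class (Python 3.11.15, SciPy 1.17.1), with exact Poisson, Clopper-Pearson and conditional binomial intervals. Free RNA was profiled over barcodes of ranks 45000 to 90000. The rule for calls was tested on simulated data.

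The members, gene lists and cell type markers were chosen with earlier results of these data known. The genes named are the members, the genes of the fixed lists and, for each member, the 5 genes of most like profile. *Lef1* and markers were named as checks. A transcript sequence is from GENCODE vM21. The alternatives tried were other limits on UMIs and mitochondrial share, doublets left out, a trim on detected genes, gates in place of clusters, resolution 0.6, free RNA subtracted and thinning. Counts over the list of crypt niche factors outside the Wnt pathway are not reported here.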

Additional observations from a re-analysis of the deposited data

Results flagged for a closer look

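*Rspo1* was the only member whose ratio between the libraries (VApcMinL over ApcMin) left out 1 in opposite directions in different cell classes with at least 50 UMIs. It was 0.581 in the *Ereg* *Adamdec1* cluster, 1.24 in the *Has1* cluster and 10.1 in the epithelial-like cells. The last value rests on 1 UMI in ApcMin and on 52 UMIs in 9 VApcMinL cells, in a comparison whose median log2 ratio over genes was −0.30. In the *Has1* cluster, the adipocyte genes stood at 6.42 CPM in ApcMin and 1135 CPM in VApcMinL, and their part in the value was not tested. Without doublets the ratios were 0.545 (0.397 to 0.747), 1.18 (1.04 to 1.35) and 4.12 (0.660 to 170.9), so the last interval held 1. With cells thinned to 3000 UMIs both fibroblast-like intervals held 1, at 0.612 (0.3045 to 1.25) and 1.23 (0.933 to 1.63), and the epithelial-like cells had 0 and 5 UMIs. The difference between the classes was not tested.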

How the results depend on the processing

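No paired analysis was possible because only 1 library stands for each genotype. The log2 ratio of *Rspo3* in fibroblast-like cells stayed between −0.34 and −0.30 under 12 alternatives. Giving clusters equal weight (chosen after seeing the data, like scaling to the median and leaving out the mixed clusters) moved *Rspo1* from −0.11 to 0.0755 and *Rspo2* from 0.14 to −0.25, and the other 11 alternatives moved neither beyond the counting interval of its first value. The interval of *Rspo1*, which held 0, lay below 0 without doublets (−0.28 to −0.02), without the mixed clusters (upper bound −0.00063) and scaled to the median (−0.26 to −0.01).

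Shares of UMIs moved more, given here as ApcMin before VApcMinL. With cells gated one by one, fibroblast-like cells held 75.7% and 50.9% of *Rspo1*, 80.1% and 70.2% of *Rspo2* and 85.0% and 67.8% of *Rspo3* UMIs, and endothelial-like cells 1.61% and 7.75% of *Rspo3*. Thinned to 3000 UMIs, the fibroblast-like share was 92.7% and 71.3% of *Rspo1*, 100% of *Rspo2* in VApcMinL and 96.0% and 85.5% of *Rspo3*, and the endothelial-like share of *Rspo3* was 3.09% and 12.9%. Without doublets (348 and 345 barcodes by Scrublet score) the fibroblast-like share was 99.8% and 99.8% of *Rspo2* and 98.1% and 91.4% of *Rspo3*, and the endothelial-like share of *Rspo3* 1.62% and 7.58%. In VApcMinL, a minimum of 6000 UMIs or the order-of-magnitude rule gave 90.8% and 90.8% of *Rspo3* in fibroblast-like cells and 7.38% and 7.32% in endothelial-like cells. Trimming 1% of cells by detected genes gave 94.4% of *Rspo1* in ApcMin. The causes were not tested.

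Scrublet's own threshold called 0 and 79 doublets. Its top scores covered 35.6% and 33.3% of the mixed clusters and 5.05% and 3.196% of other fibroblast-like cells. Depth limits *Rspo2* most, with 457 and 449 UMIs.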
